A study of Mus musculus with 15 samples.

Results

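The genes described here encode the collagens, the laminins and the enzymes that cut, inhibit and cross-link the extracellular matrix, followed in mouse distal colon before and after AOM/DSS treatment with and without Irf1. They were chosen by symbol: every numbered collagen chain, laminin chain, Mmp, Timp, Adamts and Lox family gene, together with Fn1, Sparc, Tnc, Postn, Fbn1 and Eln. Of 12897 genes in the 3 deposited count tables, 75 met this rule, namely 30 collagen chains, 11 laminin chains, 8 matrix metalloproteinases, 3 Timp inhibitors, 12 Adamts proteases, 5 Lox family enzymes and 6 glycoproteins. A level filter set by the authors decided which genes are in the tables, so that 72 of the 75 genes had counts in all 15 libraries and 3 (Adamts14, Col24a1 and Lamc3) were in only 2 tables. Mmp3, Mmp7, Mmp9, Mmp10, Mmp13, Timp1 and Adamts4 were not analysed here.

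The study compared 5 groups of 3 mice on the C57BL/6 background, with an age given as 8 to 10 weeks. The authors give that age for mice at injection of the carcinogen, so treated mice were older when killed. B6 wild-type mice gave 2 untreated groups, called control set 1 and control set 2, and 1 group treated with AOM/DSS. Irf1-/- mice, which lack a functional copy of the interferon-responsive transcription factor Irf1, gave 1 untreated and 1 treated group. Treated mice were injected once with the carcinogen azoxymethane (AOM, 7 mg/kg) on day 1, drank the colitis-inducing agent dextran sulfate sodium (DSS, 2%) from day 8 to day 11, and were killed on day 26 (D26). Levels are in counts scaled to a common library total (CPM) after TMM scaling, changes are log2 fold changes with standard errors (SE), and a gene was called when its fold change (FC) was at least 1.5 with an adjusted p under 0.01 in edgeR's quasi-likelihood test across all genes.

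The 15 libraries held 22266607 to 22869853 counts each, from RNA of the whole distal colon, so that fewer cells of a type and less RNA per cell cannot be told apart. Irf1 itself was at 79.4 to 123 CPM in the 6 Irf1-/- libraries and at 128 to 227 CPM in the 9 B6 libraries, with no overlap. The sex of the mice is not in the labels, and Xist was at 5.97 to 25.2 CPM in 3 treated libraries (B6 D26 replicates 1 and 2 and Irf1-/- D26 replicate 1) and at 321 to 3729 CPM in the other 12. The B6 D26 libraries also stood apart in base composition, with counts that rose by 0.139 to 0.299 log2 units per 10% of transcript GC content, against -0.131 to 0.0341 in the other 12 libraries. The matrix genes had a median GC content of 54.2% and all genes one of 50.8%.

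Collagens fall into families by the structures they build. Fibrillar collagens form the tensile fibers of the submucosa and lamina propria, FACIT collagens decorate those fibers, type VI collagens form beaded microfilaments around cells, and type IV collagen forms the network of the basement membrane together with laminins, each a trimer of an α, a β and a γ chain. Epithelium is fixed to this membrane by epithelial laminins, by the transmembrane collagen XVII and by anchoring fibrils of collagen VII. Lysyl oxidases cross-link collagen and elastin, Mmp and Adamts proteases cut matrix proteins, and Timps inhibit them. Turnover of this matrix is a known part of colitis, wound repair and tumor stroma.

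Of the 4 matrix genes called up with treatment on average over both genotypes (Col7a1, Col17a1, Col18a1 and Lama1), 3 had promoter sequences in the RefSeq table used here (build GRCm38.p6). Their 250 bases before the annotated start, 5′ to 3′ on the strand of the gene, are printed because these are the genes the treatment comparison turned on. Capitals mark matches, on either strand, to any of 4 short motifs: AP-1 (TGANTCA), GC box (GGGCGG), TEAD (GGAATG) and TATA box (TATAAA). Col7a1 lies on the plus strand (chr9:108953336-108953585), Col17a1 on the minus strand (chr19:47692043-47692292), and Col18a1, also on the minus strand, has 2 separate starts in the table (chr10:77166531-77166780 and chr10:77113706-77113955).
Col7a1: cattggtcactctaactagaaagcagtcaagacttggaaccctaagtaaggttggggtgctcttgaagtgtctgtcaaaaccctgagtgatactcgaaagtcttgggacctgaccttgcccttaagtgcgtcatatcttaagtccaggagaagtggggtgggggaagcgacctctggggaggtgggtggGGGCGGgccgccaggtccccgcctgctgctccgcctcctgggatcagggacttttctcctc
Col17a1: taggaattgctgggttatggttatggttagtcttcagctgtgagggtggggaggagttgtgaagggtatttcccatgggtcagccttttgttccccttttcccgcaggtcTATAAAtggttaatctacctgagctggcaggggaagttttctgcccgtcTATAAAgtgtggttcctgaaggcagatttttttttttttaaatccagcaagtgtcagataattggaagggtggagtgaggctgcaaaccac
Col18a1 (start beside 77166531): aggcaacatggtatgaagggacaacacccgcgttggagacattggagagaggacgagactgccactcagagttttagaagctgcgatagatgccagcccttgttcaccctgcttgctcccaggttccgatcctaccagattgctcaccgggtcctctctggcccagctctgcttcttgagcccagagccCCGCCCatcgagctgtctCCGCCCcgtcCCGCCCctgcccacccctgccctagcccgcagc
Col18a1 (start beside 77113706): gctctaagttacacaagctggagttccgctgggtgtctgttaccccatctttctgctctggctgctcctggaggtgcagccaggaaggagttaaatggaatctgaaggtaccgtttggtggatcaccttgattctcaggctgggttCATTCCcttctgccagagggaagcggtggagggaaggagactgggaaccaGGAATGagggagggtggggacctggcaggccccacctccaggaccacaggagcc

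None of the 4 motifs searched was found in all 3 genes. Col17a1 held 2 TATA boxes, beginning 140 and 91 bases before its start. Col7a1 held a GC box 61 bases before its start, the first Col18a1 window held 3 GC boxes on the opposite strand, and the second held 2 TEAD matches, 1 on each strand. None of these windows held an AP-1 match. Over the 56 promoters of the 50 matrix genes that had one, a GC box was in 33 (58.9%), a TATA box in 7 (12.5%), a TEAD match in 5 (8.93%) and an AP-1 match in 1 (1.79%). Over all 32851 promoters of the same length the shares were 32.7%, 12.4%, 12.6% and 6.75%. A match is a string of letters and was not shown to be a bound site.

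Together the 72 genes present in all tables took 1.03% to 1.25% of the counts of a group. Summed levels were 10308 ± 311 CPM (SD, n = 3) in control set 1, 10784 ± 705 CPM in control set 2, 10491 ± 951 CPM in untreated Irf1-/-, 11359 ± 1364 CPM in B6 D26 and 12452 ± 2339 CPM in Irf1-/- D26. The 3 Irf1-/- D26 libraries were at 15023, 10451 and 11882 CPM, so that the spread within that group was larger than the difference between group means.

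Per kb of transcript, levels spanned a wide range within each family. Col3a1, the fibrillar chain that accompanies type I collagen in soft tissue, had the highest mean level of all, 369 CPM per kb over all libraries, and Col24a1 the lowest fibrillar level, 0.801 CPM per kb. Among the other families the highest levels per kb were those of Postn (166 CPM per kb), the matricellular protein periostin, Col6a1 (88.3), Col4a1 (82.1), Timp3 (41.6), Lamb3 (40.5), Loxl2 (37.2), Mmp2 (32.6), Col16a1 (20.5), Adamts15 (14.8) and Col17a1 (5.99). At the low end were Col6a5 (1.14 CPM per kb), Col10a1 (1.85), Timp4 (1.09), Lamc3 (0.879), Loxl3 (2.29), Mmp17 (1.51), Col20a1 (1.68), Adamts17 (0.875) and Col7a1 (1.05), whereas the lowest glycoprotein, Eln, was still at 17.8 CPM per kb. Col28a1, the only chain outside the named collagen families, was at 1.85 CPM per kb. Col24a1 and Lamc3 had no values in control set 2, and their levels are means over the other groups.

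The first question was how these genes responded to AOM/DSS when both genotypes were averaged. Of 74 tested genes 4 were called up and 0 were called down: the anchoring fibril collagen Col7a1, the hemidesmosomal collagen Col17a1, the basement membrane collagen Col18a1 and the laminin chain Lama1, by 1.67-fold to 2-fold. Across all 12483 genes tested, 0.945% were called up and 0.352% were called down, or 1.3% in all. DESeq2 called 6 matrix genes up and 0 down, and 182 up and 56 down of all genes. An unadjusted p under 0.05 was reached by 33 matrix genes up and 2 down, or 47.3% in either direction, against 34.2% of all genes (16.2% upward). The log2 FC was positive for 60 of 74 matrix genes (81.1%) and for 49.4% of all genes, and its median was 0.18 for the matrix genes and -0.00 for all genes. Treated libraries did not overlap untreated ones in either genotype for 14 matrix genes that were higher and 0 that were lower, where 4.13% of all genes were higher and 4.03% lower in this way.

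**Figure D1:**
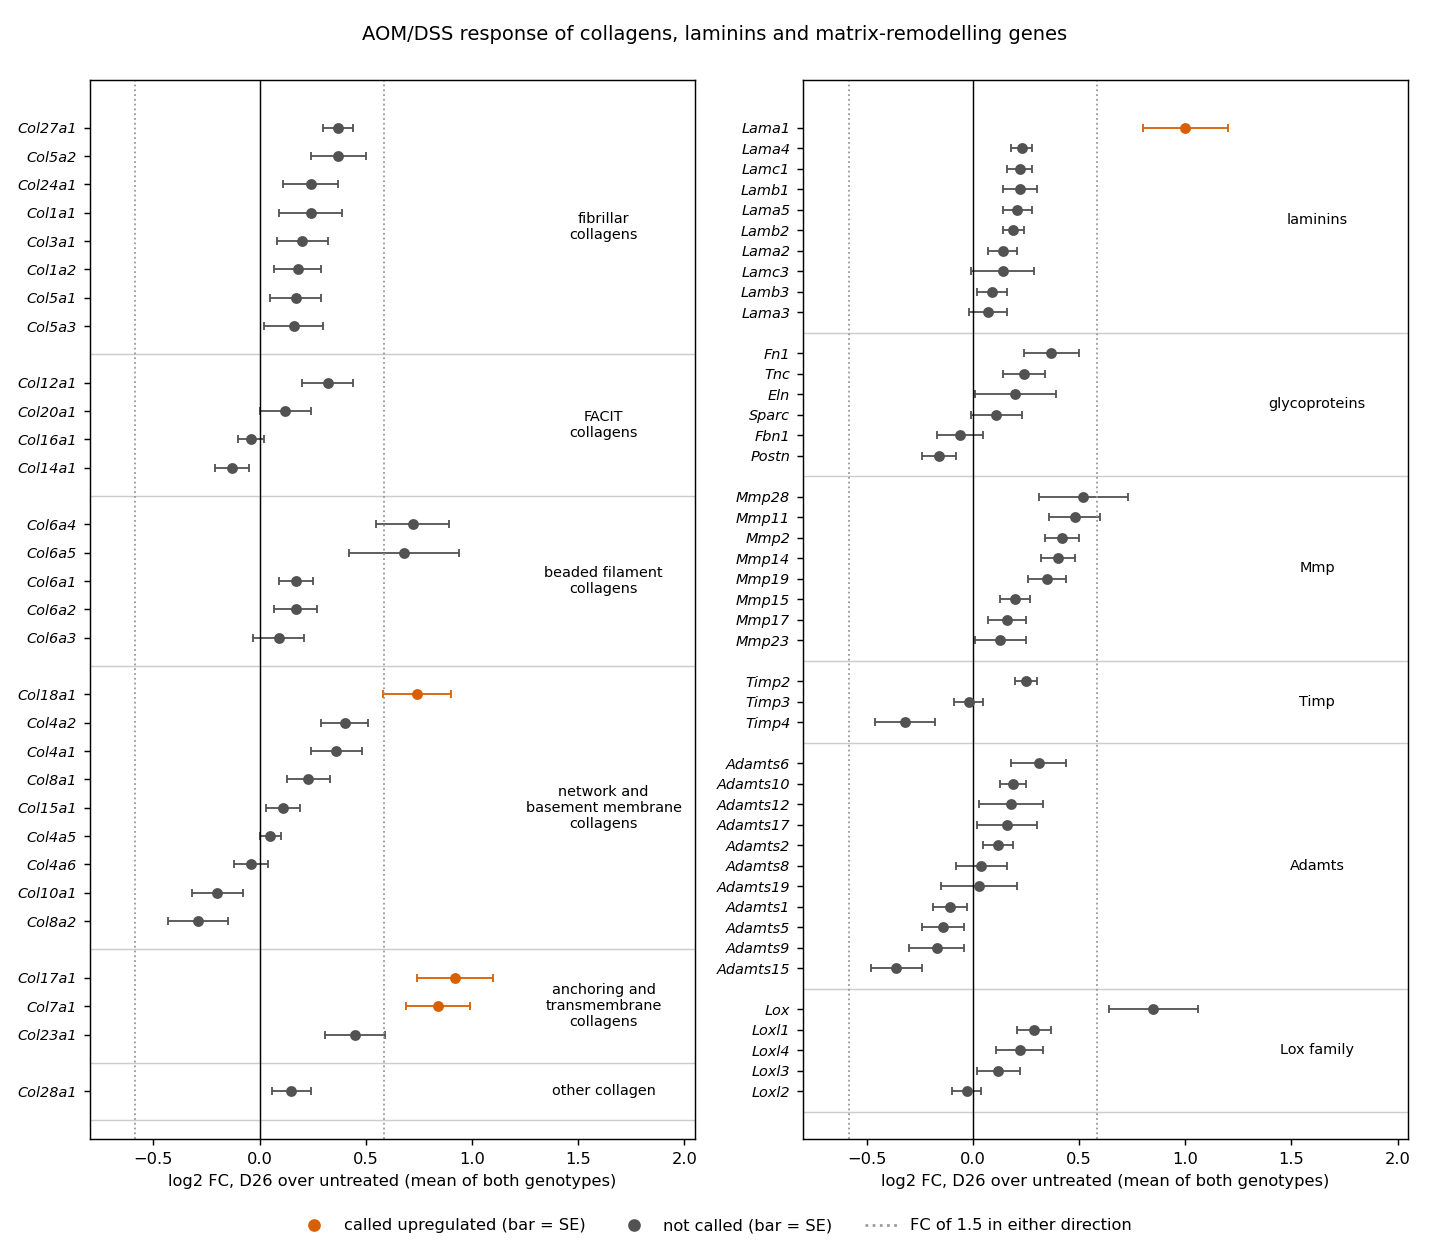
Log2 FC (x axis) of 73 matrix genes in the mean of the B6 and Irf1-/- responses to AOM/DSS (D26 over untreated), arranged by family, with bars for SE, called genes in orange and dotted lines at an FC of 1.5. Most points lie to the right of 0, all 8 Mmp genes and the 10 laminin chains drawn among them, and the 4 called genes lie between 0.74 and 1.00.

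Col7a1, the main chain of anchoring fibrils, was at 8.45, 5.42 and 5.06 CPM in control set 1 and at 9.75, 15.2 and 10.8 CPM in B6 D26, and went from 7.78, 8.72 and 6.66 CPM in untreated Irf1-/- to 11.2, 13.7 and 14.7 CPM in Irf1-/- D26. Treated libraries were above the untreated ones in each genotype, with a log2 FC of 0.84 ± 0.15 (SE, adjusted p = 0.0044). Col17a1, which spans the basal membrane of epithelial cells, was at 25.8, 17.0 and 22.5 CPM in control set 1, 31.7, 44.1 and 42.4 CPM in B6 D26, 25.7, 29.7 and 17.7 CPM in untreated Irf1-/- and 30.7, 46.3 and 67.2 CPM in Irf1-/- D26. Its log2 FC was 0.92 ± 0.18 (adjusted p = 0.00691), again without overlap in either genotype. Control set 2, which the B6 response does not use, held levels of both genes close to the treated ones: 8.34, 11.2 and 9.29 CPM for Col7a1 and 28.3, 40.7 and 31.9 CPM for Col17a1.

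Lama1, a laminin α chain best known from embryonic basement membranes, was at 7.57, 5.86 and 5.72 CPM in control set 1, 11.3, 12.9 and 9.53 CPM in B6 D26, 5.69, 6.54 and 6.05 CPM in untreated Irf1-/- and 22.0, 10.7 and 8.74 CPM in Irf1-/- D26. The log2 FC was 1.00 ± 0.20 (adjusted p = 0.00658), and all 6 treated libraries lay above all 9 untreated ones, control set 2 included at 7.17, 7.51 and 6.65 CPM. Col18a1, whose C-terminal fragment is endostatin, was at 72.8, 68.6 and 67.5 CPM in control set 1, 102, 144 and 105 CPM in B6 D26, 81.7, 80.6 and 83.0 CPM in untreated Irf1-/- and 206, 103 and 101 CPM in Irf1-/- D26. Its log2 FC was 0.74 ± 0.16 (adjusted p = 0.00899). For Col18a1 too the treated libraries were above all untreated ones, of which control set 2 was at 85.6, 84.8 and 80.8 CPM.

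**Figure D2:**
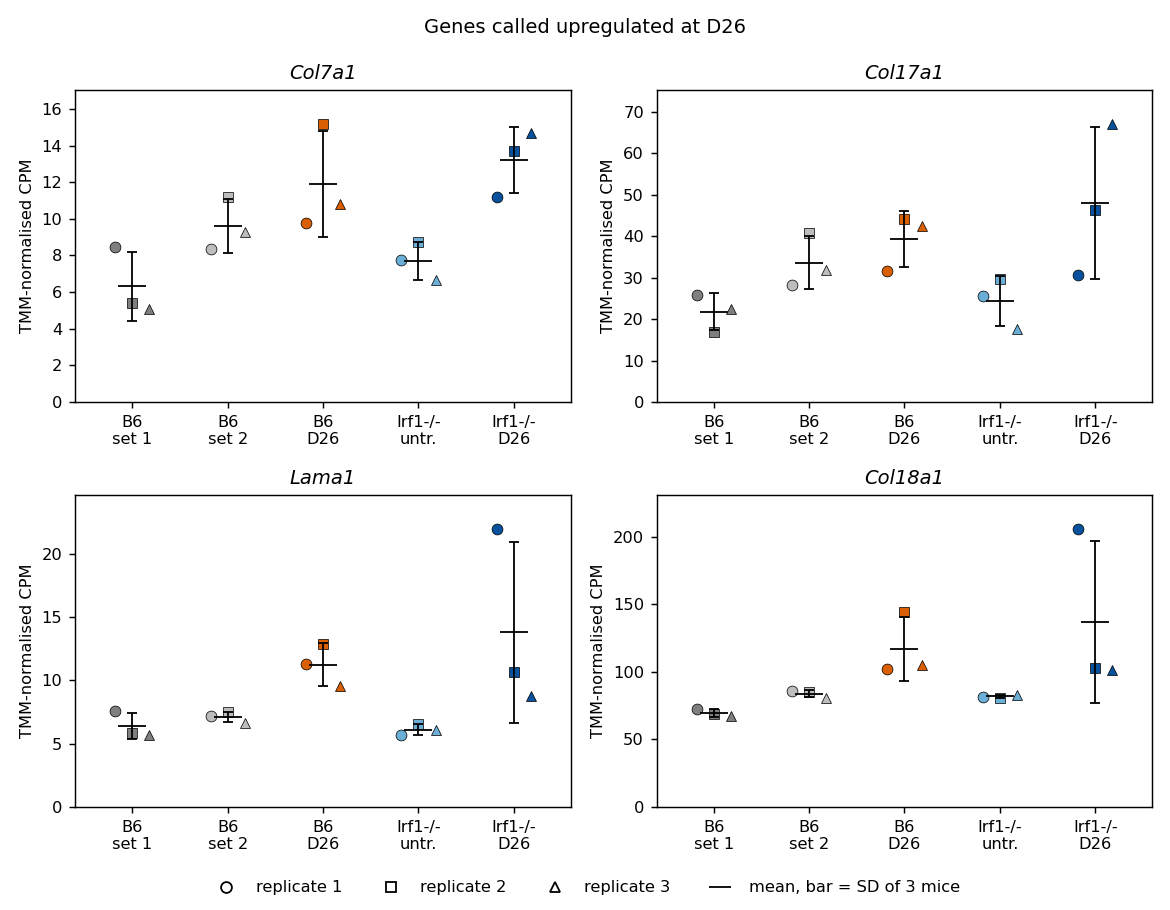
Level (CPM, linear axis from 0) in each of the 15 libraries for the 4 genes called in the average response, with 1 point per mouse, a line at each group mean and bars for SD. Irf1-/- D26 replicate 1 is the highest library for Lama1 (22.0 CPM) and Col18a1 (206 CPM), whereas Irf1-/- D26 replicate 3 is the highest for Col17a1 (67.2 CPM).

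The 4 calls differed in how far they rested on single libraries. Over the 12 fits that left out 1 mouse, the log2 FC stayed at 0.74 to 0.98 for Col7a1, 0.75 to 1.13 for Lama1, 0.76 to 1.04 for Col17a1 and 0.53 to 0.84 for Col18a1. The adjusted p crossed 0.01 in many of them: 0 of the 74 genes were called without any 1 of the untreated Irf1-/- mice or without control set 1 replicate 2 or 3, Col7a1 alone was called without control set 1 replicate 1 or B6 D26 replicate 2 or 3, and 3 to 5 genes were called without any other treated mouse. These 12 fits called 82 to 239 of all genes, against 162 with every mouse included. Without Irf1-/- D26 replicate 1 the log2 FC of Col18a1 was 0.53 and that of Lama1 0.75. Without the treated library highest in collagens of each genotype (B6 D26 replicate 2 and Irf1-/- D26 replicate 1), Col7a1, Col17a1 and Lama1 were called and Col18a1, at 0.44, was not. Without the 3 treated libraries low in Xist, Col7a1 and Col17a1 were called, and Lama1, at 0.62 (adjusted p = 0.0127), and Col18a1, at 0.45, were not. With log2 Xist as a covariate or with a correction for GC content 0 of the 4 were called, at a log2 FC of 0.43 to 1.13 and 0.63 to 0.96 respectively. The fit with log2 Xist called 58 of all genes, against 162 without it. The part of sex and of base composition in these values was not tested further.

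At any FC, called genes included, 2.55% of all genes passed an adjusted p of 0.01 upward and 2.48% downward. Beside the 4 called matrix genes, a further 4 passed it upward at an FC under 1.5. They were Mmp2 (gelatinase A) at 0.42 ± 0.08 (adjusted p = 0.00503) and Mmp14, the membrane protease that activates the Mmp2 proenzyme, at 0.40 ± 0.08 (adjusted p = 0.00594). Timp2, which takes part in that activation as well as inhibiting Mmp2, was at 0.25 ± 0.05 (adjusted p = 0.00945), and the fibrillar chain Col27a1 at 0.37 ± 0.07 (adjusted p = 0.00626). Mmp2 was at 79.5 to 95.1 CPM in the 9 untreated libraries and at 109 to 145 CPM in the 6 treated ones, and Mmp14 at 67.7 to 84.0 CPM and 87.0 to 115 CPM, with no overlap for either gene. With 1 mouse left out the adjusted p of Mmp2, Mmp14 and Col27a1 reached 0.0163, 0.0175 and 0.0168. In the other alternative fits it reached 0.027, 0.0352 and 0.0509. Over all alternatives their log2 FC stayed at 0.28 to 0.47, 0.27 to 0.44 and 0.24 to 0.42.

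All 8 Mmp genes had a positive log2 FC, with a median of 0.38. The remaining members were Mmp11 (stromelysin 3) at 0.48 ± 0.12 (adjusted p = 0.0167), Mmp19 at 0.35 (adjusted p = 0.018), Mmp15 at 0.20, Mmp28 at 0.52, Mmp17 at 0.16 and Mmp23 at 0.13, none of them called. Summed over the family, Mmp levels were 317 to 365 CPM in the 9 untreated libraries and 386 to 473 CPM in the 6 treated ones, so that every treated library was above every untreated one. Of the inhibitors, Timp3, the matrix-bound Timp, was at -0.02 ± 0.07 (adjusted p = 0.871) and Timp4 at -0.32 (adjusted p = 0.128).

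**Figure D3:**
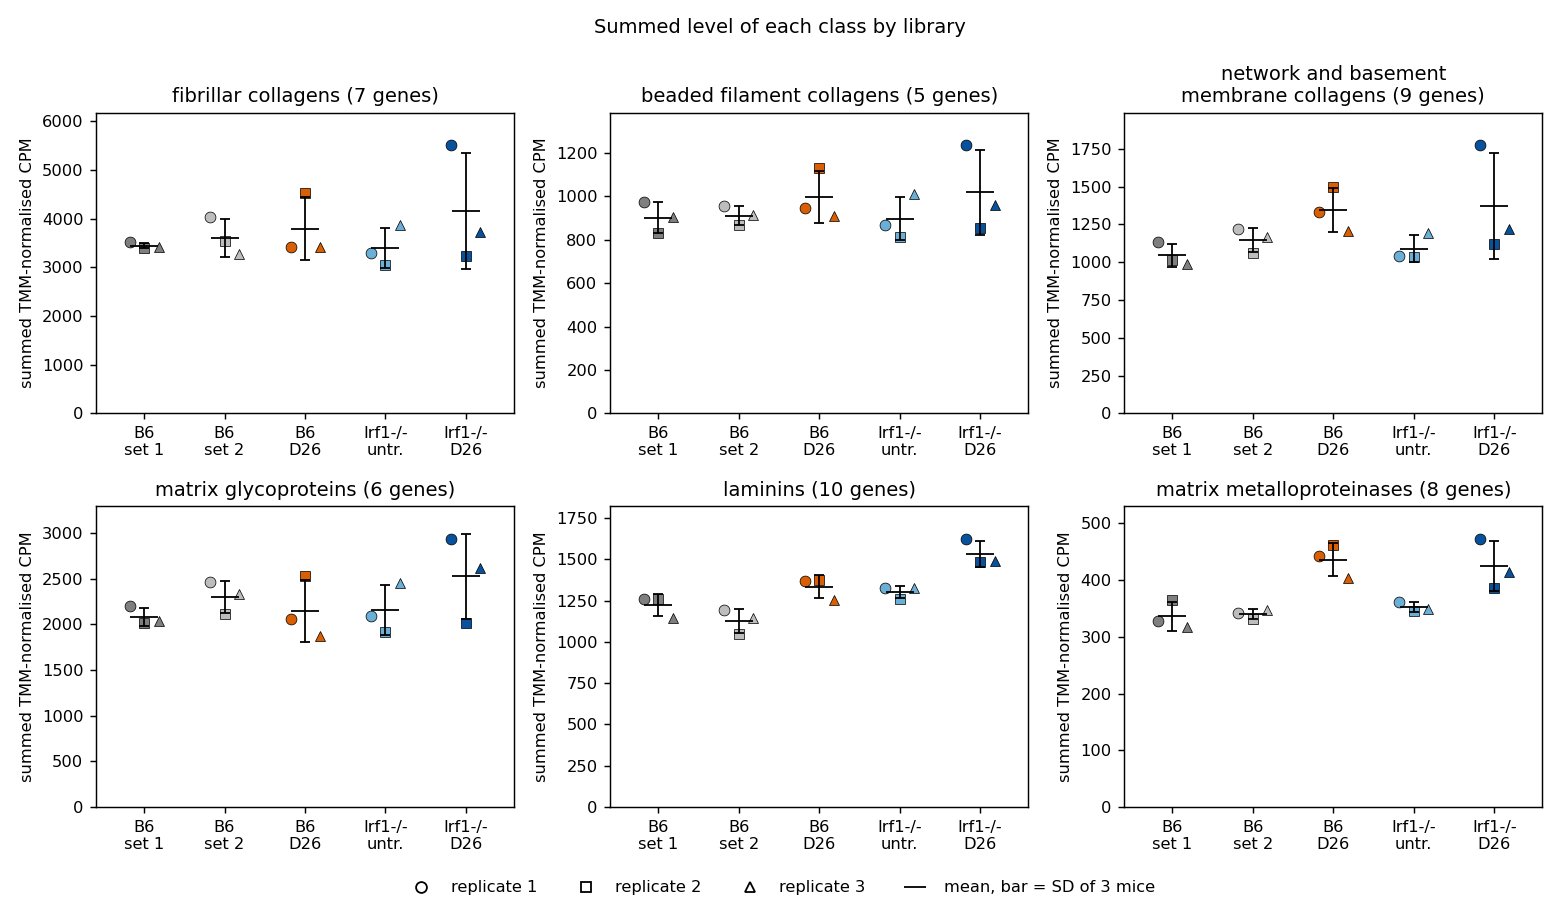
Summed level (CPM, linear axis from 0) of 6 families in each of the 15 libraries, with 1 point per mouse, a line at each group mean and bars for SD. The Mmp sums of the 6 treated libraries (386 to 473 CPM) lie above those of the 9 untreated ones (317 to 365 CPM), and in the fibrillar collagen panel Irf1-/- D26 replicate 1 (5515 CPM) and B6 D26 replicate 2 (4536 CPM) lie above all others.

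All 11 laminin chains tested had a positive log2 FC (median 0.21), and Lama1 alone was called. Lama4, the α chain of vessel and muscle laminins, was at 0.23 ± 0.05 (adjusted p = 0.0108), Lamb2 at 0.19 (adjusted p = 0.02) and Lamc1, the most widely used γ chain, at 0.22 (adjusted p = 0.0262). Lama5, the main α chain of adult epithelial basement membrane, was at 0.21 (adjusted p = 0.0655), Lama3 at 0.07 (adjusted p = 0.654) and Lamb3 at 0.09 (adjusted p = 0.364). Laminin sums over the 10 chains in all tables were 1145 to 1263 CPM in control set 1 and 1253 to 1378 CPM in B6 D26, which overlapped, and 1258 to 1326 CPM in untreated Irf1-/- and 1487 to 1626 CPM in Irf1-/- D26, which did not.

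The abundant interstitial collagens were not called. Col1a1, Col1a2 and Col3a1, which together make most of the collagen of the gut wall, had a log2 FC of 0.24 ± 0.15, 0.18 ± 0.11 and 0.20 ± 0.12 (adjusted p = 0.278, 0.273 and 0.26). Col3a1 was at 1955, 1924 and 1929 CPM in control set 1, 1941, 2566 and 1876 CPM in B6 D26, 1839, 1714 and 2095 CPM in untreated Irf1-/- and 3033, 1790 and 1994 CPM in Irf1-/- D26. One library of each treated group was thus high and the other two were within the untreated range. Col5a1 and Col5a2, which regulate fibril diameter, were at 0.17 (adjusted p = 0.322) and 0.37 (adjusted p = 0.07).

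The same pair of libraries was high across much of the matrix. Irf1-/- D26 replicate 1 was the highest of all 15 libraries for 34 of the 72 genes (47.2%), among them 5 of 5 beaded filament and 6 of 7 fibrillar collagens and 7 of 10 laminin chains, whereas it was highest for 9.2% of all genes. Among the 3 treated B6 mice, replicate 2 was highest for 43 of the 72 genes (59.7%, against 38.7% of all genes). Fibrillar collagens summed to 3417, 4536 and 3422 CPM in B6 D26 and to 5515, 3234 and 3731 CPM in Irf1-/- D26, against 3057 to 4026 CPM in the untreated groups. Without the treated library highest in collagens of each genotype, the median log2 FC of the matrix genes was 0.10 in place of 0.18. Both libraries were also among the 3 low in Xist.

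Network collagens moved less evenly. Col4a1 and Col4a2, the 2 chains of ubiquitous type IV collagen, were at 0.36 ± 0.12 (adjusted p = 0.0524) and 0.40 ± 0.11 (adjusted p = 0.0296), whereas Col15a1 was at 0.11 (adjusted p = 0.377) and Col8a2 and Col10a1 at -0.29 and -0.20. Of the beaded filament chains, Col6a1, Col6a2 and Col6a3, which form the common type VI trimer, were at 0.17, 0.17 and 0.09, and the alternative chain Col6a4 was at 0.72 ± 0.17 (adjusted p = 0.0138). Col6a4 was at 11.6 to 17.7 CPM in control set 1, 18.5 to 28.9 CPM in B6 D26, 22.0 to 24.4 CPM in untreated Irf1-/- and 27.5 to 53.1 CPM in Irf1-/- D26, so that untreated Irf1-/- libraries lay within the range of treated B6 libraries. The FACIT chains Col12a1 and Col14a1 were at 0.32 (adjusted p = 0.0757) and -0.13 (adjusted p = 0.267).

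Among the cross-linking enzymes Lox had the largest value, 0.85 ± 0.21 (adjusted p = 0.0173), and was not called. It was at 7.66, 10.1 and 5.28 CPM in control set 1, 12.5, 21.7 and 10.1 CPM in B6 D26, 13.5, 10.8 and 10.3 CPM in untreated Irf1-/- and 26.7, 16.7 and 15.4 CPM in Irf1-/- D26. Treated libraries were above untreated ones in each genotype, although the highest untreated and the lowest treated B6 library were both at 10.1 CPM after rounding. Loxl1, needed for elastic fiber assembly, was at 0.29 (adjusted p = 0.03), and Loxl2, which had the highest level per kb of the family, at -0.03 (adjusted p = 0.789).

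Glycoproteins had smaller values. Fibronectin (Fn1) was at 0.37 ± 0.13 (adjusted p = 0.0637), tenascin C (Tnc) at 0.24 (adjusted p = 0.126), elastin (Eln) at 0.20 (adjusted p = 0.503), Sparc at 0.11 (adjusted p = 0.536), fibrillin 1 (Fbn1) at -0.06 (adjusted p = 0.726) and Postn at -0.16 (adjusted p = 0.159). Of the 11 Adamts genes tested 7 had a positive log2 FC, with a median of 0.04. The lowest value of all matrix genes was that of Adamts15, a protease of the proteoglycan versican, at -0.36 ± 0.12 (adjusted p = 0.0551). Adamts15 was at 61.7, 100 and 70.3 CPM in control set 1 but at 127, 115 and 101 CPM in control set 2, against 60.7 to 78.4 CPM in B6 D26.

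Taken alone, the B6 response (B6 D26 against control set 1) had 0 of 74 matrix genes called, where 0.0316% of all genes were called up and 0.0158% were called down (0.0475% in all). DESeq2 called 7 matrix genes up, and 227 up and 214 down of all genes. Matrix genes with an unadjusted p under 0.05 numbered 28 (37.8%, against 29.5% of all genes). Values above 0 were found for 60 of 74, with a median of 0.17 against 0.01 for all genes. After the correction for GC content 47 of 74 were above 0, with a median of 0.11. The smallest p-values belonged to Col18a1 (0.75 ± 0.13, adjusted p = 0.02), Col6a5 (1.15 ± 0.23, adjusted p = 0.0246), Col17a1 (0.86 ± 0.17, adjusted p = 0.0254), Mmp11 (0.82 ± 0.17, adjusted p = 0.0262), Lama1 (0.83 ± 0.18, adjusted p = 0.0295) and Mmp2 (0.43 ± 0.10, adjusted p = 0.0376). Treated libraries lay above all control set 1 libraries for 24 matrix genes (16.4% of all genes did so) and below them for 3, Postn, Adamts1 and Adamts9 (18.1% of all genes). Postn was at 605, 591 and 573 CPM in control set 1 and at 412, 523 and 384 CPM in B6 D26, a log2 FC of -0.42 ± 0.12 (adjusted p = 0.0607). Without B6 D26 replicate 1, Col18a1 was called, in a fit that called 152 of all genes in place of 6.

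In the Irf1-/- response (Irf1-/- D26 against untreated Irf1-/-) 0 of 75 matrix genes were called, where 0.205% of all genes were called up and 0.0473% were called down. DESeq2 called 3 genes up, Col7a1, Lama1 and Lox, and 152 up and 69 down of all genes. Without adjustment, 28 had a p under 0.05 (37.3%, against 18.6% of all genes). Values above 0 were found for 62 of 75, with a median of 0.20 against 0.01. Col7a1 had the smallest p (0.78 ± 0.15, adjusted p = 0.0399), followed by Timp2 (0.30 ± 0.07, adjusted p = 0.0549), Mmp14 (0.40 ± 0.09, adjusted p = 0.0598), Lama4 (0.31 ± 0.07, adjusted p = 0.0627), Col27a1 (0.42 ± 0.10, adjusted p = 0.0672) and Adamts15 (-0.52 ± 0.13, adjusted p = 0.0734). Treated libraries lay above the untreated ones for 21 matrix genes (12.2% of all genes) and below them for 1 (13% of all genes), Adamts15, at 76.1, 62.2 and 83.5 CPM against 124, 98.1 and 97.0 CPM.

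The B6 and Irf1-/- responses use separate libraries, and the signs of their log2 FC were compared gene by gene. Of 74 genes, 55 were positive in both responses (74.3%, against 33% of all genes) and 7 were negative in both (9.46%, against 29.6%), namely Adamts5, Adamts15, Col10a1, Col8a2, Fbn1, Loxl2 and Timp4. A positive value in B6 alone was seen for 5 genes (Adamts8, Adamts19, Col20a1, Col4a6 and Eln) and in Irf1-/- alone for 7 (Adamts1, Adamts9, Col14a1, Col16a1, Lama3, Postn and Timp3). Each response held 1 library that was high for much of the matrix, as given above.

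**Figure D4:**
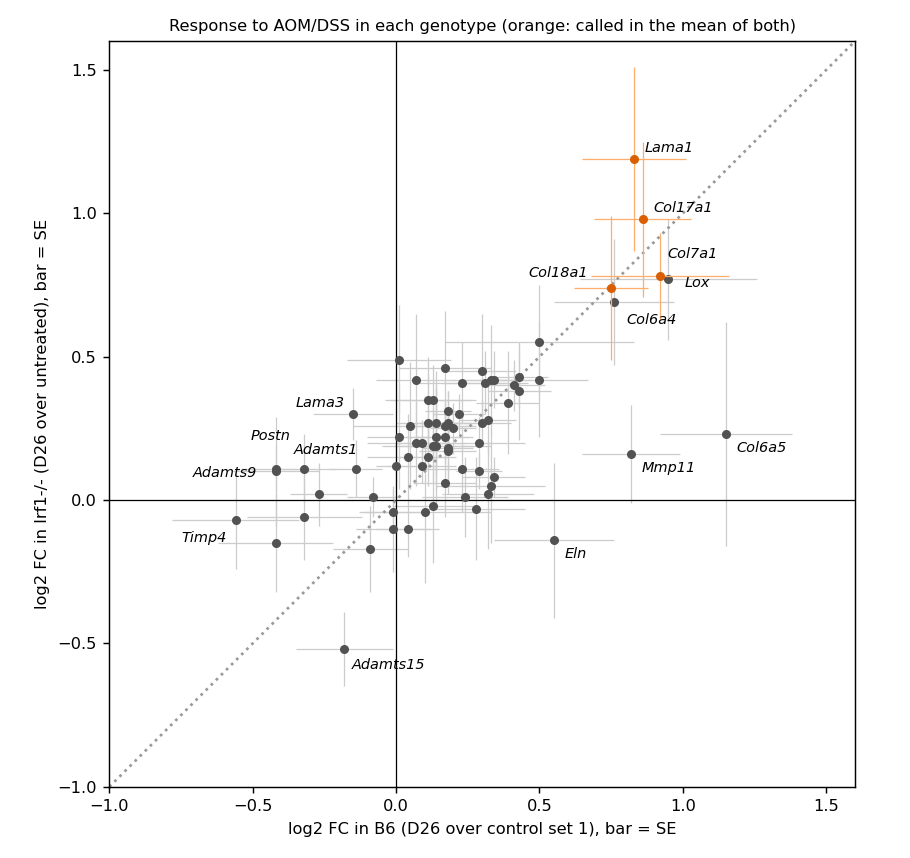
Log2 FC in Irf1-/- (y axis) against log2 FC in B6 (x axis) for 74 matrix genes, with bars for SE and a dotted line at equal responses. The 4 genes called in the mean of both responses (orange) are near the line at the upper right, whereas Postn and Lama3 lie to the left of 0 and Mmp11, Col6a5 and Eln below the line.

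The difference between the 2 responses was tested directly, to ask whether Irf1 altered the reaction of the matrix genes to treatment. None of 74 genes was called, where 0.016% of all genes were called up and 0 down, and DESeq2 called 0 as well (49 up and 26 down of all genes). At an unadjusted p under 0.05 there were 4 matrix genes, or 5.41%, against 16.9% of all genes (9.65% upward). The smallest p-values were those of Postn, whose response was higher in Irf1-/- by 0.53 ± 0.15 (adjusted p = 0.118), Mmp11 (-0.65 ± 0.24, adjusted p = 0.195), Adamts1 (0.43 ± 0.17, adjusted p = 0.223), Lama3 (0.46 ± 0.18, adjusted p = 0.237), Adamts9 (0.52 ± 0.26, adjusted p = 0.328) and Lamb2 (-0.19 ± 0.10, adjusted p = 0.349). Lama3 had a difference of only 0.04 (adjusted p = 0.961) when the B6 response was taken against control set 2. For Col7a1, Col17a1, Col18a1 and Lama1 the difference was -0.14 ± 0.30, 0.13 ± 0.37, -0.01 ± 0.31 and 0.36 ± 0.40, errors that leave room for sizeable differences in either direction.

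At steady state, untreated Irf1-/- colons were compared with control set 2 to ask which genes differed before any treatment. None of 73 matrix genes was called, where 0.0874% of all genes were called up and 0.318% were called down. DESeq2 called Col6a4 up and Adamts9 down, and 31 up and 76 down of all genes. An unadjusted p under 0.05 was found for 16 matrix genes, or 21.9%, against 10.4% of all genes (5.2% upward). The median was -0.02, with 34 of 73 positive. Libraries of the 2 genotypes did not overlap for 8 matrix genes that were higher in Irf1-/- (7.83% of all genes) and for 4 that were lower (7.61%).

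The epithelial laminin chains Lama3 and Lamb3, which link basal integrins to the basement membrane, were each higher in all untreated Irf1-/- libraries than in all those of control set 2, and neither was called. Lamb3 was at 225, 211 and 217 CPM against 152, 132 and 163 CPM (0.55 ± 0.08, adjusted p = 0.0103), and Lama3 at 235, 220 and 227 CPM against 191, 121 and 143 CPM (0.58 ± 0.14, adjusted p = 0.0954). Without control set 2 replicate 1, Lama3 was called at 0.78 (adjusted p = 0.00228), whereas it was at 0.44 (adjusted p = 0.119) without replicate 2 and not called in any other fit with 1 mouse left out, where the adjusted p was as high as 0.299.

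Control set 1, which was not part of that test, was higher than control set 2 in both chains. It held 186, 206 and 169 CPM of Lamb3 and 222, 207 and 179 CPM of Lama3. All 3 untreated Irf1-/- libraries were above all 6 untreated B6 libraries for Lamb3, but not for Lama3. With control set 1 in place of set 2, the log2 FC was 0.22 for Lamb3 (adjusted p = 0.125) and 0.16 for Lama3 (adjusted p = 0.273).

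**Figure D5:**
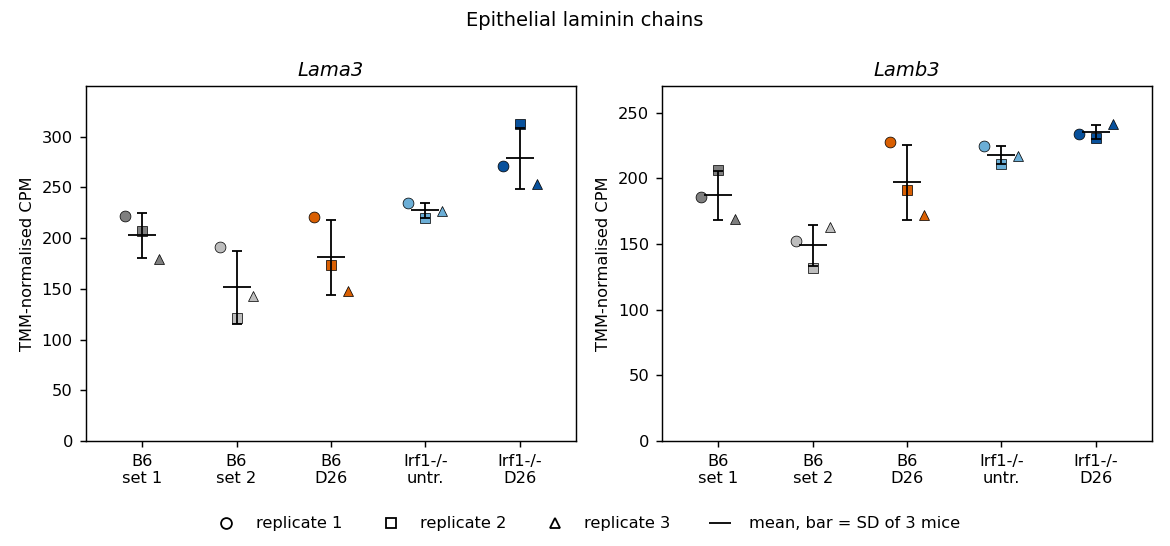
Level (CPM, linear axis from 0) of Lama3 and Lamb3 in each of the 15 libraries, with 1 point per mouse, a line at each group mean and bars for SD. Untreated Irf1-/- libraries lie above both B6 control sets for Lamb3 (211 to 225 CPM against 132 to 206 CPM), and treated Irf1-/- libraries lie above treated B6 libraries for both chains.

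Outside the laminins, 3 genes had small p-values at steady state. Adamts9, a secreted protease, was lower in untreated Irf1-/- at 11.5, 11.1 and 15.4 CPM against 24.5, 18.0 and 22.5 CPM (-0.77 ± 0.16, adjusted p = 0.049), and Adamts1 was at 19.8, 15.3 and 20.0 CPM against 27.8, 26.8 and 24.1 CPM (-0.51 ± 0.12, adjusted p = 0.0885). Col6a4 was higher, at 23.2, 22.0 and 24.4 CPM against 17.4, 14.2 and 9.96 CPM (0.74 ± 0.17, adjusted p = 0.0854). Against control set 1 these 3 differences were -0.63 (adjusted p = 0.0204), -0.46 (adjusted p = 0.0439) and 0.75 (adjusted p = 0.0187), and none of them passed the threshold there either. For each of the 3 genes the untreated Irf1-/- libraries lay outside the range of both control sets.

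Between the treated groups (Irf1-/- D26 against B6 D26) 0 of 74 matrix genes were called, where 0.0721% of all genes were called up and 0.312% were called down. DESeq2 called Lama3 up, and 128 up and 142 down of all genes. At an unadjusted p under 0.05 there were 8 matrix genes (10.8%, against 22% of all genes). Lama3 was at 271, 312 and 253 CPM in Irf1-/- D26 and at 221, 174 and 148 CPM in B6 D26 (0.61 ± 0.15, adjusted p = 0.0729). Lamb3 was at 234, 231 and 241 CPM against 228, 191 and 172 CPM (0.24 ± 0.11, adjusted p = 0.249), so that both chains were again without overlap. Irf1-/- D26 libraries lay above all B6 D26 ones for 5 matrix genes (14.5% of all genes) and below them for 4 (13%). Other small p-values were those of Col8a1 (0.54 ± 0.16, adjusted p = 0.107), a short-chain network collagen, Col6a4 (0.67 ± 0.25, adjusted p = 0.176), Postn (0.33 ± 0.13, adjusted p = 0.182) and Mmp11 (-0.41 ± 0.16, adjusted p = 0.19). Without Irf1-/- D26 replicate 1, Col6a4 was at 0.31 (adjusted p = 0.361), and Postn was at 0.17 after the correction for GC content.

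The 2 untreated B6 groups carry the same genotype and treatment label, and their comparison gives the size of differences between sets of untreated mice. None of 72 matrix genes was called between set 2 and set 1, where 0.0242% of all genes were called up and 0.0403% were called down, and DESeq2 called 2, Col17a1 and Eln (77 up and 67 down of all genes). At an unadjusted p under 0.05 there were 15 matrix genes (20.8%, against 17.2% of all genes). Col17a1 and Col7a1 were higher in set 2 by 0.63 ± 0.17 (adjusted p = 0.0991) and 0.61 ± 0.21 (adjusted p = 0.181), Col18a1 by 0.27 ± 0.07 (adjusted p = 0.0946), Adamts15 by 0.57 ± 0.16 (adjusted p = 0.112) and Eln by 0.79 ± 0.18 (adjusted p = 0.076), whereas Col10a1 was lower by 0.72 on the log2 scale (adjusted p = 0.0721). With set 2 in place of set 1 in the average response, Lama1 was called up, Adamts15 was called down, and Col7a1, Col17a1 and Col18a1 were not called.

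Genes that act on the matrix from outside the rule were counted in 5 lists. In the comparisons not named here these lists had 0 genes called. In the average response the plasminogen system, which activates several Mmps, had 2 of 4 tested genes called up, where 0.945% of all genes were called up and 0.352% down: the urokinase receptor Plaur (0.77 ± 0.13, adjusted p = 0.00289) and tissue plasminogen activator Plat (0.60 ± 0.13, adjusted p = 0.00861). Urokinase (Plau) was called up at steady state, at 1.46 ± 0.14 in untreated Irf1-/- over control set 2 (adjusted p = 0.000691), and between the treated groups, at 0.99 ± 0.13 (adjusted p = 0.00856), where 0.0874% and 0.0721% of all genes were called up. Of 25 proteoglycans and other matrix proteins 1 was called up in the average response (Mfap4, a microfibril protein, at 0.68, adjusted p = 0.00624) and 1 was called down (the small leucine-rich proteoglycan Ogn, at -0.59, adjusted p = 0.00411), with a median of 0.17. The other 3 lists had 0 genes called in that comparison: collagen-making enzymes and chaperones (16 tested, 6 up and 0 down at an unadjusted p under 0.05, which 16.2% of all genes reached upward, median 0.11), matrix receptors (19 tested, 12 up and 0 down, median 0.17) and the TGF-beta axis (17 tested, 9 up and 1 down, median 0.15). Within them Ltbp3 (0.43, adjusted p = 0.000885) and Ltbp1 (0.31, adjusted p = 0.00866), which hold latent TGF-beta in the matrix, and the integrin chain Itgb5 (0.34, adjusted p = 0.00628) passed an adjusted p of 0.01 at an FC under 1.5.

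Cell type markers were followed beside these values, and their part in the matrix values was not tested. Of 7 fibroblast markers 0 were called in the average response (median 0.16), and their summed level ran from 970 to 1180 CPM in untreated and from 1062 to 1260 CPM in treated libraries. Smooth muscle markers had a median of -0.00, and B and plasma cell markers one of -0.07. The latter stood apart between the control sets, at a summed 576 to 635 CPM in set 1 and 218 to 239 CPM in set 2, with Igj called down in set 2 (-1.39 ± 0.08, adjusted p = 7.44e-05). Endothelial markers had a median of 0.20 and macrophage markers one of 0.46, and for both the summed levels of treated libraries (129 to 154 CPM and 425 to 556 CPM) lay above those of untreated ones (106 to 125 CPM and 276 to 422 CPM). Epithelial markers had a median of 0.04, with 5 of 7 positive. Car1 was called down (-0.80, adjusted p = 0.00465), whereas Krt20 was at 0.43 (adjusted p = 0.0111) and Cdx2 at 0.57 (adjusted p = 0.0357), neither called. Neutrophil, nerve and fat lists had 2 tested genes or fewer, and S100a8, S100a9, Il1b, Sox10, S100b, Elavl4, Adipoq, Plin1 and Msln were not analysed in all groups.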

How the data were processed

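RNA of the distal colon of 15 mice, 3 in each of 5 groups taken from the sample labels, was sequenced as 50 bp pairs from stranded, rRNA-depleted libraries. The submitters' processing notes name TopHat2 2.0.9, Bowtie 1.0.0, featureCounts, edgeR and the build mm9. The authors deposited 3 tables of raw counts per gene, limited to genes with at least 5 CPM in at least 3 libraries. The authors also deposited CPM, log2 CPM and log2 fold changes, p-values with their adjusted values, dispersions and a call score for each gene, and none of these was used here. The untreated Irf1-/- counts, identical in 2 tables for 12496 genes, were entered once per fit.

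Counts were scaled with TMM and tested with the quasi-likelihood test of edgeR 4.0.16 (R 4.3.3), without a block, on the genes shared by the tables of each comparison, with Benjamini-Hochberg adjustment over all of them. Thresholds were an FC of 1.5 and an adjusted p of 0.01. Comparisons were each genotype's response, their mean and difference, the genotypes untreated (with control set 2) and treated, and the control sets. The average response weights both genotypes equally. The scripts were tested on simulated counts. The values of 1 member are not reported here, though it stands in the counts, sums and medians. The members and lists were chosen with earlier results of these data known. Named genes were a core list, every called gene, up to 6 genes with the smallest p in each comparison, and the highest and lowest level per kb of each family. Errors beside log2 FC are SE and those beside CPM are SD.

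Alternatives were RLE size factors, DESeq2 1.42.0, a filter of 10 CPM, a joint fit of all 15 libraries, a block for the replicate number, an adjusted p of 0.05, a lowess correction for GC content (span 0.3), the other or both control sets and each mouse left out. Log2 Xist as a covariate, a fit without the 3 treated libraries low in Xist and a fit without 1 library of each treated group were chosen after seeing the data. Promoters are from RefSeq (GRCm38.p6), and transcript lengths and GC content were found for all 75 genes. Whether counting used the strand is not given in the sources used here, and Col7a1, Col18a1 and Lamb3 overlap other annotated genes (Mir711, Gm7775 and Gm51741). The p-values weigh a difference between groups against the spread between mice. That spread was estimated over all groups of a fit and drew on all genes.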

Additional observations from a re-analysis of the deposited data

How the results depend on the processing

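In the average response 4 matrix genes were called, and 2 were with the replicate block, 0 with the GC correction, 2 with control set 2 in place of set 1, 0 with log2 Xist as a covariate, 2 without the 3 treated libraries low in Xist and 0 to 5 with 1 mouse left out. In the B6 response, with 0 called, DESeq2 called 7 (441 of all genes). Fits with 1 mouse left out called 0 to 1 (0 to 152 of all genes). All 15 libraries in 1 fit called 2, an adjusted p under 0.05 called 6 and both control sets 3. For those settings, and for others given here without a count over all genes, only a range over all genes is given below. A shift in the matrix genes cannot be told apart there from a general shift in calls. In the Irf1-/- response DESeq2 called 3 and an adjusted p under 0.05 called 1. At steady state DESeq2 called 2, an adjusted p under 0.05 called 1, and fits with 1 mouse left out 0 to 1. DESeq2 called 1 between treated genotypes and 2 between control sets. The cause of these shifts was not tested, beyond the fewer mice in some fits. No value changed its sign while called. Over 43 combinations of a named gene and a comparison, 727 alternative values were computed, of which 612 kept direction and side of the threshold, 49 lost the threshold, 24 gained it and 42 moved in size without a test. Counts over all genes moved more: 162 in the average response became 82 to 239 with 1 mouse left out and 58 to 257 otherwise, 6 in the B6 response became 0 to 152 and 0 to 441, 32 in the Irf1-/- response became 0 to 61 and 13 to 221, 51 at steady state became 26 to 64 and 41 to 137, 48 between treated genotypes became 17 to 48 and 7 to 270, 2 for the difference became 1 to 9 and 0 to 75, and 8 between control sets became 3 to 53 and 6 to 144. Replicate numbers were not shown to pair the mice: deviations of same-numbered libraries from their group means correlated at -0.128 to -0.113 between control set 1 and B6 D26, -0.0464 to 0.255 between the Irf1-/- groups, 0.00369 to 0.058 at steady state and -0.225 to 0.19 between treated groups, and with the replicate block Col7a1 and Lama1 were the matrix genes called in the average response, 0 were called in the other comparisons, as without it, and the count over all genes between treated genotypes was 7 in place of 48. The median log2 FC of the matrix genes in the average response was 0.18, and 0.10 with the GC correction, 0.09 with log2 Xist as a covariate and 0.12 without Irf1-/- D26 replicate 1. The lowest levels that could be followed were set by the deposited filter of at least 5 CPM in at least 3 libraries, and not by depth. Single libraries could lie lower.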

Other observations

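The small leucine-rich proteoglycan Ogn, called down in the average response, had a log2 FC of -0.98 in B6 and -0.19 in Irf1-/-, and the difference of 0.80 did not pass the threshold (adjusted p = 0.108). In untreated Irf1-/- colons the fibulin Efemp1 was at -0.51 (adjusted p = 0.00756) and thrombospondin 1 (Thbs1) at -0.68 (adjusted p = 0.019) relative to control set 2, neither of them called. Ltbp2, a microfibril protein of the TGF-beta axis list, and Tgfb1 had a log2 FC of 1.02 and 0.54 in the average response, both with an adjusted p of 0.0109, and the hyaluronan receptor Cd44 was at 0.53 (adjusted p = 0.0115).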
